A study of Homo sapiens with 8 samples.

Results

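Chromosome 19 carries the densest set of zinc finger genes of the human genome. Here its members were taken as the protein-coding genes of GENCODE 44 on chromosome 19 whose symbol is ZNF followed by a number. This gave 240 genes of 19970 protein-coding genes on chromosomes 1 to 22 and X. Another 6 genes of chromosome 19 whose symbol ends in a letter were not included by this rule. The assay was FAIRE-seq, in which crosslinked and sheared chromatin is extracted with phenol and chloroform and DNA with few nucleosomes stays in the aqueous phase, so that a peak marks open chromatin. The cells were clones of U2OS, a human osteosarcoma cell line, namely the wild-type (WT) clones WT_4 and WT_5 and the ZBTB48 knockout (KO) clones KO_C5 and KO_D2. ZBTB48 is itself a zinc finger protein that binds telomeric repeats and promoters. Each clone gave 1 untreated library and 1 library after 250 U/ml interferon gamma (IFNγ), which makes 4 groups of 2 libraries. The labels give 24 hours of IFNγ while the text of the study gives a longer time, so the duration is uncertain. Each genotype rests on 2 clones, and a difference between genotypes cannot be told apart from one between single clones.

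Most ZNF genes of chromosome 19 encode proteins with a KRAB domain followed by an array of C2H2 zinc fingers. The fingers bind DNA, often within transposable elements, and the KRAB domain recruits the co-repressor TRIM28, which brings histone methylation and heterochromatin proteins. The genes arose by tandem duplication and lie in clusters, and the cluster of the pericentromeric short arm (19p12), which holds the ZNF91 family, expanded in primates. Their promoters are mostly CpG islands, while their long finger exons carry heterochromatin marks in many cell types. A few members, such as ZNF146 and ZNF574, lack a KRAB domain.

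A member was called open in a library when a peak of that library lay within 500 bp of an annotated transcription start site (TSS). By this measure 103 of the 240 members (42.9%) were open in all 8 libraries, 101 (42.1%) in 1 to 7 libraries and 36 (15.0%) in none. The other 1236 protein-coding genes of chromosome 19 had 49.8% open in all 8, 21.0% in 1 to 7 and 29.1% in none. Of the 236 ZNF genes on other chromosomes, 70.3% were open in all 8 libraries and 21.2% in 1 to 7. Members thus had a larger share of promoters that were listed in some libraries and not in others. The 101 variable members were spread over all counts, with 26 open in 5 libraries, 20 in 7 and 6 in 1. In 11 pairs, 22 members had overlapping 500 bp windows around their starts or a common peak, such as ZNF565 with ZNF146 and ZNF569 with ZNF570. Counting each pair once gave 229 promoters. Paired members were not always called alike, as ZNF529 was open in all 8 libraries and its partner ZNF382 in none.

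The promoter sequences below are shown for 7 members that stand for these classes, each as the 250 bases before the start in RefSeq (GRCh38.p14), 5′ to 3′ on the strand of the gene, with CpG dinucleotides in capitals. The start used by RefSeq was the canonical start of GENCODE for each of the 7. ZNF420, which encodes a KRAB protein known as a negative regulator of p53, was among the strongest members and had a peak at this start in all 8 libraries. ZNF470 was open in all 8 and ranked higher in every WT library than in any KO library. ZNF317 and ZNF284 were listed in 4 libraries each, both KO clones after IFNγ and both WT_5 libraries. ZNF382, ZNF154 and ZNF208 had no peak in any library.
ZNF420 (chr19:37078183-37078432, plus strand): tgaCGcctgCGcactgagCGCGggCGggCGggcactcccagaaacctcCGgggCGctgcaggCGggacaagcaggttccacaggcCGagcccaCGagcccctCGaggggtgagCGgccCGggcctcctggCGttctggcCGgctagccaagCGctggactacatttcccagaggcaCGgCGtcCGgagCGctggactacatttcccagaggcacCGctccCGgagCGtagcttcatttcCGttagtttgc
ZNF470 (chr19:56567218-56567467, plus strand): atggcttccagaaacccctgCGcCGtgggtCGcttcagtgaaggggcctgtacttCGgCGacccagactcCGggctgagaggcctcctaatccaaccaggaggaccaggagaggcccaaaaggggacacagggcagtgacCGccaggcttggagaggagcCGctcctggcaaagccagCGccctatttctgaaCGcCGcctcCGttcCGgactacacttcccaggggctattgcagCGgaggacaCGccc
ZNF317 (chr19:9140147-9140396, plus strand): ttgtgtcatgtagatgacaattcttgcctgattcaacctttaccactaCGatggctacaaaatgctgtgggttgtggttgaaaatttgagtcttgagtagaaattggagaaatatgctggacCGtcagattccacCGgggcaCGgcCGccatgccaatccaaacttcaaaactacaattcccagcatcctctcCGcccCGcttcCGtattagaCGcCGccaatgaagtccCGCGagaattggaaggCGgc
ZNF284 (chr19:44071909-44072158, plus strand): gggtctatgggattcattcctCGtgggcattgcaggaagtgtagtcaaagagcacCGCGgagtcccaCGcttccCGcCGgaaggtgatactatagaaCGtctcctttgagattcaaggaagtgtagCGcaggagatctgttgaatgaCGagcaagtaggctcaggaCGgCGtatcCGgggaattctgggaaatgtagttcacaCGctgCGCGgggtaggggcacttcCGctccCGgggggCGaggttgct
ZNF382 (chr19:36605063-36605312, plus strand): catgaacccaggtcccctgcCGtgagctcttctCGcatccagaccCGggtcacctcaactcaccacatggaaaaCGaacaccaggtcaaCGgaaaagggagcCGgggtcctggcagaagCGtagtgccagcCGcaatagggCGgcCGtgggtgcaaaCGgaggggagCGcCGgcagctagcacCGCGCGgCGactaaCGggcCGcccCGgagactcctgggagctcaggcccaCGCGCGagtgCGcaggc
ZNF154 (chr19:57709205-57709454, minus strand): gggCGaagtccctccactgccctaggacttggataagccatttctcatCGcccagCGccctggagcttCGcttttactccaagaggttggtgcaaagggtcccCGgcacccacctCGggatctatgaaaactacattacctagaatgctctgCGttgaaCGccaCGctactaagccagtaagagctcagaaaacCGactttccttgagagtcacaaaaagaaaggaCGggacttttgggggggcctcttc
ZNF208 (chr19:22010944-22011193, minus strand): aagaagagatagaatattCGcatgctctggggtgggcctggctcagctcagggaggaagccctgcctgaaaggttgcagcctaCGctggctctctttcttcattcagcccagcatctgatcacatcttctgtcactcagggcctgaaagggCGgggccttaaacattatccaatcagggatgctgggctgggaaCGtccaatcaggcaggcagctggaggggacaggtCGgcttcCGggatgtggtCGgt
The 250 bases of ZNF420 held 25 CpGs and those of ZNF382 held 24, although the first was open in every library and the second in none. ZNF470 held 15, ZNF284 held 18, ZNF317 held 13, ZNF154 held 11 and ZNF208 held 7.

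The depth of the libraries is not given by peak lists, so list length and the pileup at summits stand in for it. The lists held 16730 to 37533 peaks. The fragment pileup at the summit and the local background of each peak were solved from its fold enrichment and −log10 p, and a whole number of fragments fitted each of the 1307 member promoter peaks. The median summit pileup of the 103 members open in all 8 libraries ranged from 41 fragments (WT_4 after IFNγ) to 82 (KO_C5 after IFNγ). Of the cell type markers examined, 3 of 7 mesenchymal or bone genes were open in all 8 libraries (RUNX2, VIM and CDH2) and COL1A2 in none. The epithelial genes CDH1, ESRP1 and GRHL2 were open in none and EPCAM in all 8, and 0 of 5 blood genes were open in all 8. The promoter of ZBTB48 was open in all 8 libraries, so it does not check the knockout.

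The share of open members was compared between libraries, genotypes and treatments. It was 56.2% in untreated WT_4, 80.0% in untreated WT_5, 50% in untreated KO_C5 and 64.2% in untreated KO_D2. After IFNγ the share was 53.8% in WT_4, 82.5% in WT_5, 81.2% in KO_C5 and 76.7% in KO_D2. After IFNγ the WT clones stood on either side of the KO clones, while without treatment KO_C5 was lowest and WT_5 highest. The share thus spanned 50% to 82.5% of the members, whereas that of the other chromosome 19 genes spanned 56.1% to 66.1% and that of ZNF genes elsewhere 74.6% to 90.3%. Members were above the other chromosome 19 genes in 5 libraries, by 7.61 to 18.2 percentage points, and below them in both WT_4 libraries and untreated KO_C5, by -6.15 to -4.10 points. The mean difference of 7.34 points was within the spread between clones (two-sided exact sign-flip permutation p = 0.25 over 4 clones, the smallest these clones allow being 0.13). It was 4.30 points without KO_C5 after IFNγ. Members were below the ZNF genes elsewhere in 8 of 8 libraries, by -15.7 points on average (exact permutation p = 0.13, the smallest these 4 clones allow).

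**Figure D1:**
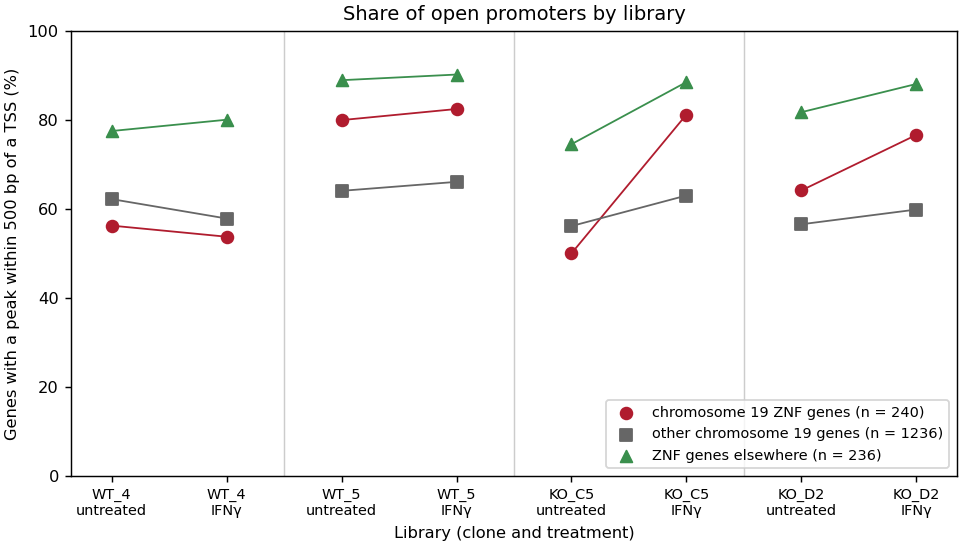
Share of genes with a peak within 500 bp of a TSS (y axis, %) in each library (x axis, by clone and treatment), for the 240 chromosome 19 ZNF genes (circles), the other 1236 genes of the chromosome (squares) and 236 ZNF genes elsewhere (triangles); lines join the libraries of a clone. The ZNF genes of chromosome 19 run from 50% to 82.5% and cross the squares, which stay between 56.1% and 66.1%.

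The 4 libraries with the highest shares also had the 4 longest lists, at 24727 to 37533 peaks. Within these 4, and within the other 4, the order of the shares was not that of list length. Untreated KO_D2 had the shortest list, with 16730 peaks, and the share of its members (64.2%) was above that of untreated WT_4 (21715 peaks, 56.2%), untreated KO_C5 (19255 peaks) and WT_4 after IFNγ (18913 peaks). When every list was cut to its 16730 strongest peaks, the share still ran from 46.7% (untreated KO_C5) to 75% (untreated WT_5), while that of the other chromosome 19 genes ran from 54.4% to 58.2%. In these lists of equal length, members stayed above the other genes in the same 5 libraries, by 7.61 to 19.1 points, and below them in the other 3, by -7.78 to -5.47 points.

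The study asked whether ZBTB48 sets promoter accessibility, so WT and KO were compared first. Clone means averaged 68.1% ± 18.6 for WT, against 68.0% ± 3.39 for KO (SD over 2 clones per genotype). This difference of 0.104 points did not exceed the spread of either genotype (two-sided exact permutation p = 1 over 6 assignments of the clones, smallest possible 0.33). Over all 8 libraries 0 of the 204 members with any peak were open in WT libraries only, and 0 in KO libraries only. The corresponding background over the 14428 protein-coding genes with any peak was 0.326% WT-only and 0% KO-only. In untreated libraries 7 members (3.43%) were open in both WT clones and neither KO clone, beside 2.45% of all genes, and 0 showed the opposite, beside 0.0277%. These were ZNF20, ZNF442, ZNF610, ZNF701, ZNF264, ZNF671 and ZNF776. Of these 7, the first 5 had a peak in both KO clones after IFNγ. Without WT_4 the WT-only count was 32, without KO_D2 21 and without KO_C5 12. In IFNγ libraries 0 members were WT-only and 0 KO-only, beside 1.13% and 0.146% of all genes, and without WT_5 the KO-only count was 51.

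IFNγ was compared with no treatment next. The mean share was 62.6% ± 13 in untreated and 73.5% ± 13.4 in IFNγ libraries (SD, n = 4 libraries each), a difference of 10.9 points that did not exceed the spread (two-sided exact permutation p = 0.314 over 70 assignments, adjusted p = 0.471 over 3 measures). That test did not pair the libraries of a clone. With the libraries paired by clone, the exact sign-flip permutation p was 0.375. The clones differed in the size and sign of this difference. The IFNγ library had 31.2 points more open members than the untreated one in KO_C5 (195 against 120 genes), 12.5 points more in KO_D2 (184 against 154) and 2.5 points more in WT_5 (198 against 192). In WT_4 the difference was -2.5 points (129 against 135 genes). The effect in KO minus that in WT was 21.9 points, which has the smallest p that 4 clones allow (exact permutation p = 0.33, adjusted p = 0.5). Without untreated KO_C5 it was 12.5 points and without untreated KO_D2 31.2, and the overall IFNγ difference ran from 6.74 points (without untreated KO_C5) to 17.5 (without WT_4 after IFNγ) and was 7.08 points in lists of equal length. ZNF genes elsewhere had 14 points more open in KO_C5 and 6.36 in KO_D2, and the other chromosome 19 genes 6.88 and 3.32 points. The list of KO_C5 was longer by 8202 peaks after IFNγ and that of KO_D2 by 7997 peaks, and their part in the difference was not tested beyond the lists of equal length.

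Of the 204 members with any peak, 22 (10.8%) had a peak after IFNγ in both KO clones and in neither untreated KO library. The background was 3.15% of all genes with any peak. In lists of equal length there were 15 such members, beside 1.44% of all genes. Without untreated KO_D2 the count was 61, and without KO_D2 after IFNγ it was 35. The opposite, a loss in both KO clones, was seen for 0 members (background 0.139%). In the WT clones 0 members were gained (background 0.166%) and 1, ZNF776, was lost (background 0.326%). Gain or loss in all 4 clones together was seen for 0 members, beside 0.0347% gained and 0% lost among all genes. The 22 genes came from 8 clusters, with 5 of the 25 members from ZNF653 to ZNF791 and 4 of the 13 from ZNF414 to ZNF846.

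The 22 members gained in KO were not absent from untreated WT cells. Of these, 21 had a peak in untreated WT_5 and 22 in WT_5 after IFNγ, whereas 5 had one in untreated WT_4 and 2 in WT_4 after IFNγ. Their median percentile was 52.5 in IFNγ-treated KO_C5 and 39.1 in IFNγ-treated KO_D2, beside 55.6 in untreated WT_5. The percentile gives the rank of a peak by −log10 p within its own list, with the strongest near 100. ZNF284 was listed at percentile 64.2 in untreated WT_5, 67.1 in WT_5 after IFNγ, 56.9 in KO_C5 after IFNγ and 66.6 in KO_D2 after IFNγ. ZNF350 encodes a KRAB protein that binds BRCA1. It stood at 51.6, 54.5, 40.9 and 18.5 in the same 4 libraries. For ZNF317 these values were 46.8, 52.0, 47.8 and 25.5. All 3 genes had no peak in the other 4 libraries. The lowest percentile of a gained member was 9.49 in the IFNγ-treated KO libraries (KO_D2) and 6.69 in the WT libraries (WT_4 after IFNγ).

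The same set of libraries recurred among the variable members. Of the 179 members open in both WT_5 libraries and both IFNγ-treated KO libraries, 33 (18.4%) had no peak in either WT_4 library or in untreated KO_C5. For other chromosome 19 genes this was 19 of 713 (2.66%), for ZNF genes elsewhere 13 of 203 (6.40%) and for all protein-coding genes 430 of 11968 (3.59%). These libraries were chosen after the shares were seen, so the counts describe the pattern and test nothing. The most frequent profile, with 18 members, added untreated KO_D2 to those 4 libraries and included ZNF121, ZNF44, ZNF45 and ZNF304.

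**Figure D2:**
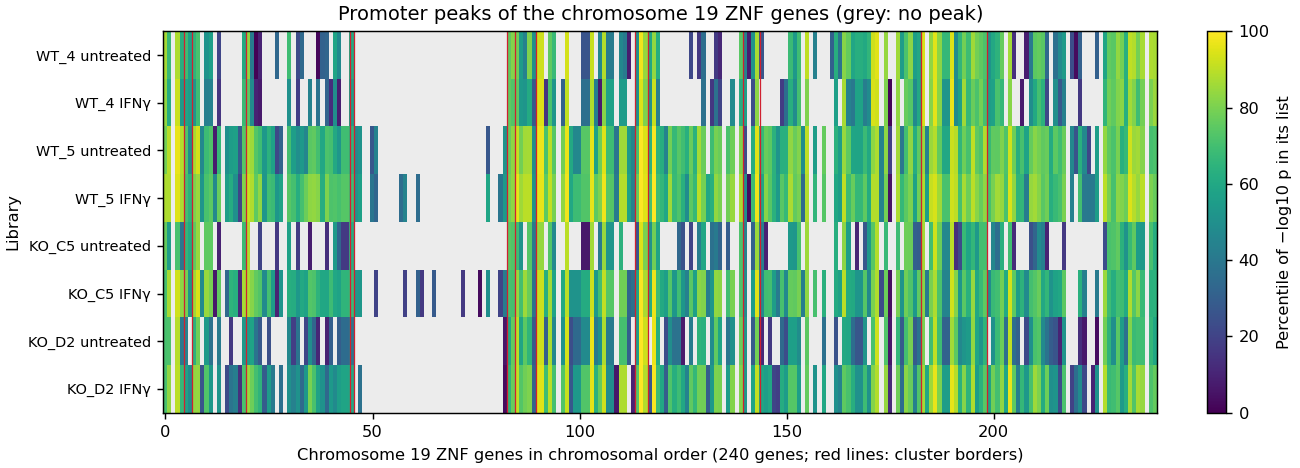
Promoter peaks of the 240 chromosome 19 ZNF genes (columns, in chromosomal order) in the 8 libraries (rows); colour gives the percentile of the peak's −log10 p in its list, grey means no peak and red lines mark where one cluster ends and the next begins. The grey block of 37 genes is the run from ZNF101 to ZNF254, and the rows of WT_4 and untreated KO_C5 hold more grey than the others.

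Position along the chromosome was examined by runs of at least 5 members whose neighbouring starts lay at most 500 kb apart. This gave 10 clusters with 228 members, and 12 members were scattered. The largest contrast between clusters was at 19p12. The 37 members from ZNF101 to ZNF254 (chromosome 19, 19668796 to 24129968, GRCh38) had 0 members open in all 8 libraries and 23 in none. Their share was 0% in both WT_4 libraries and in untreated KO_C5, 2.70% in untreated KO_D2, 5.41% in KO_D2 after IFNγ, 16.2% in untreated WT_5, 27.0% in WT_5 after IFNγ and 32.4% in KO_C5 after IFNγ. The share was below that of every other cluster in each library. Reads of low mapping quality had been removed, which can lower signal where duplicated ZNF genes share sequence. The part of read mapping in the low share of this cluster was not tested. The other 203 members had shares of 59.1% to 92.6% and were above the other chromosome 19 genes in 8 of 8 libraries, by 2.96 to 29.8 points, a split made after the clusters were seen.

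At the opposite end, the 16 members from ZNF628 to ZNF835 (55476617 to 56671783) had 15 open in all 8 libraries, and their share was 93.8% to 100% in each. The exception was ZNF579, one of the 22 genes gained in KO. The span of this cluster also holds 19 protein-coding genes without a zinc finger name, among them NLRP genes of the inflammasome family, of which 5 were open in all 8 libraries and 12 in none. In the cluster from ZNF414 to ZNF846 (8509678 to 9793180) the members stood at 46.2% in both WT_4 libraries and untreated KO_C5, at 53.8% in untreated KO_D2 and at 84.6% to 92.3% in the other 4. They averaged 69.2%, while 14 other genes of the span, with olfactory receptors among them, averaged 20.5%. The 5 members from ZNF302 to ZNF792 had shares of 80.0% to 100%, and the 5 from ZNF554 to ZNF77 stood at 80.0% in every library, ZNF556 being the one never open.

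The other 5 clusters also differed between libraries. In the 23 members from ZNF575 to ZNF180 the share was 39.1% in both WT_4 libraries, 56.5% in untreated KO_C5 and 69.6% in untreated KO_D2, and 87.0% to 91.3% in the other 4 libraries. In the 25 members from ZNF653 to ZNF791 it was 44% in untreated KO_C5, 48.0% to 52.0% in WT_4 and 92.0% to 96.0% in WT_5 and the IFNγ-treated KO clones. The 39 members from ZNF175 to ZNF331 ran from 51.3% to 87.2%, the 24 from ZNF565 to ZNF573 from 54.2% to 95.8%, and the 41 from ZNF264 to ZNF446 from 56.1% to 90.2%. Clusters were also unequal along their length. With the cluster from ZNF264 to ZNF446 divided into 3 parts, 87.5% of gene and library pairs were open from ZNF264 to ZNF550, 57.1% from ZNF416 to ZNF418 and 92.3% from ZNF256 to ZNF446. By contrast, the 3 parts of the cluster from ZNF565 to ZNF573 stood between 79.7% and 82.8%.

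**Figure D3:**
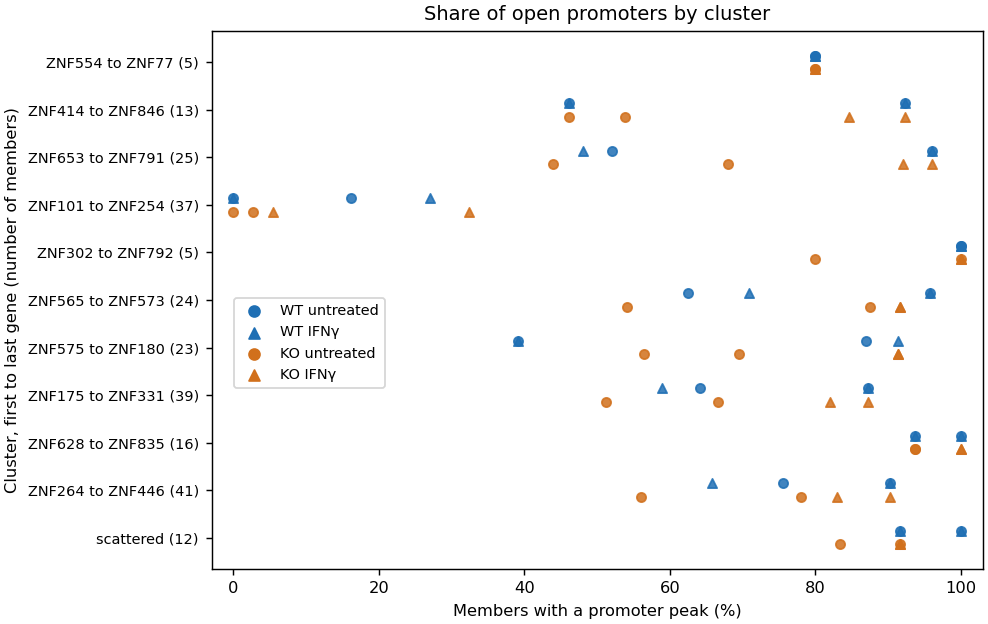
Share of members with a promoter peak (x axis, %) in each cluster (y axis, named by its first and last gene with the number of members) for the 8 libraries; blue marks WT, orange KO, circles untreated and triangles IFNγ. The cluster from ZNF101 to ZNF254 lies between 0% and 32.4%, and that from ZNF628 to ZNF835 between 93.8% and 100%.

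The height of promoter peaks was compared over the 103 members open in all 8 libraries, since the others lack values. Members stood lower in their lists than the 616 other chromosome 19 genes open in all 8 libraries, and their median percentile was lower in 8 of 8 libraries. The mean difference was -11.2 percentile points, with the smallest p that 4 clones allow (two-sided exact sign-flip permutation p = 0.13). The median percentile of members was 71.6 in untreated WT_4, 77.9 in untreated WT_5, 63.3 in untreated KO_C5 and 60.4 in untreated KO_D2. After IFNγ it was 66.4 in WT_4, 81.9 in WT_5, 75 in KO_C5 and 74.3 in KO_D2. The untreated KO libraries were lowest, and WT and KO overlapped after IFNγ. Clone means averaged 74.5 ± 7.68 for WT, against 68.3 ± 1.22 for KO (SD over 2 clones per genotype), 6.19 points apart (exact permutation p = 0.667, adjusted p = 1). This difference was 2.26 points in lists of equal length, 1.82 without untreated KO_C5, 2.09 without untreated KO_D2 and 9.67 without KO_D2 after IFNγ. With IFNγ the mean was 74.4 ± 6.33 and without it 68.3 ± 7.95 (SD, n = 4 libraries each). The difference was 6.10 points (exact permutation p = 0.286, adjusted p = 0.471), with an exact sign-flip permutation p of 0.375 when libraries were paired by clone. It ran from 3.59 points (without untreated KO_D2) to 10.1 points (without WT_4 after IFNγ) as each library was left out. The effect in KO minus that in WT was 13.4 points (exact permutation p = 0.33, adjusted p = 0.5), and 8.65 points without untreated WT_4. In lists of equal length the IFNγ difference was -1.30 points, and the effect in KO minus that in WT was 0.215 points (exact permutation p = 1).

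Fold enrichment gave the largest difference between genotypes relative to its spread. It is the ratio of summit pileup to local background, with 1 added to each. Its median over the 103 members was 33.2 in untreated WT_4, 26.6 in untreated WT_5, 16.7 in untreated KO_C5 and 17.3 in untreated KO_D2. After IFNγ it was 22.2 in WT_4, 37.3 in WT_5, 22.5 in KO_C5 and 17.4 in KO_D2. Clone means averaged 29.8 ± 2.99 for WT, against 18.5 ± 1.58 for KO (SD over 2 clones per genotype), and both WT clones lay above both KO clones (difference 11.4, exact permutation p = 0.33, the smallest possible, adjusted p = 1). The local background at the same peaks moved with genotype as well. Its median lay between 0.803 and 1.32 fragments in the WT libraries, all below the 1.83 to 3.20 of the KO libraries. The lowest local background in a sample of each list's peaks overlapped, at 0.621 to 1.02 for WT and 0.626 to 1.08 for KO. The summit pileup overlapped, at 41 to 75 fragments for WT against 50 to 82 for KO. The other chromosome 19 genes showed the same split, with a background of 0.884 to 1.48 in WT and 1.83 to 3.15 in KO libraries. The part of this background in the ranks was not tested.

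For 13 of the 103 members (12.6%) the lowest WT percentile was above the highest KO percentile, beside 6.79% of the 10217 genes open in all 8 libraries. The opposite held for 0 members (background 0.294%). In lists of equal length the first count was 3 members, beside 1.90% of 9216 genes. Without WT_4 after IFNγ it was 25 and without KO_D2 after IFNγ 21. The genes were ZNF554, ZNF536, ZNF28, ZNF816, ZNF845, ZNF667, ZNF470, ZNF71, ZNF550, ZNF606, ZNF329, ZNF544 and ZNF497. The median difference of WT and KO means was 6.21 points over the 103 members and 3.54 points over all 10217 genes. ZNF28 had the largest difference, 26.5 points. It stood at 62.5 and 58.4 in untreated WT_4 and WT_5, 10.4 and 26.6 in untreated KO_C5 and KO_D2, 58.2 and 66.7 in the WT clones after IFNγ, and 52.2 and 50.5 in the KO clones after IFNγ. Its untreated KO values were thus far below the rest, while those after IFNγ were nearer to the lowest WT value of 58.2.

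ZNF470 differed by 19.7 points. It stood at 78.6 and 75.5 in untreated WT_4 and WT_5, at 54.0 and 59.1 in untreated KO_C5 and KO_D2, at 71.5 and 82.1 in WT after IFNγ and at 60.3 and 55.6 in KO after IFNγ. It was among the members picked for this separation, so the order of the groups is a description. For ZNF497 the difference was 13.3 points, with WT libraries at 81.0 to 88.9 and KO libraries at 68.4 to 75.7. ZNF550 (18.9 points) had 64.3 to 75.5 in WT and 43.1 to 61.6 in KO. ZNF544 (14.7 points) had 63.0 to 77.7 in WT and 36.7 to 62.8 in KO, so its groups nearly touched. Between treatments, 0 members had all IFNγ libraries above all untreated ones and 0 the opposite, beside 0.891% and 0.0685% of all genes.

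**Figure D4:**
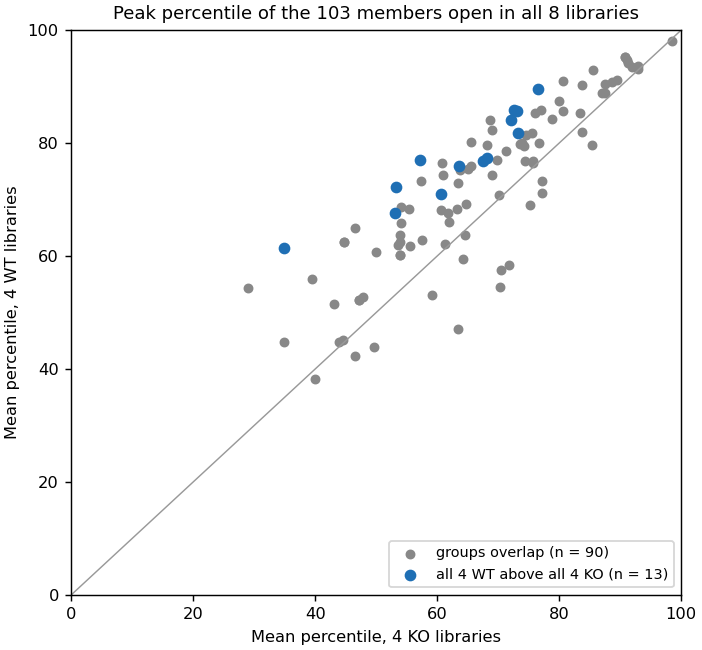
Mean percentile over the 4 WT libraries (y axis) against that over the 4 KO libraries (x axis) for the 103 members open in all 8 libraries, each point 1 gene; the line marks equal values and blue points are the 13 members whose WT values all lie above their KO values. Of the 103 points, 87 lie above the line, beside 7990 of 10217 for all genes open in all 8 libraries and 474 of 616 for the other genes of chromosome 19.

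The strongest members ranked high in every library. ZNF574, a zinc finger gene of the scattered group, had percentiles of 94.6 to 99.9 over the 8 libraries and summit pileups of 109 to 327 fragments. ZNF576 ranged from 78.5 to 99.8. ZNF565 and ZNF146 shared a promoter and its peak, which stood at 84.1 to 97.4. ZNF146 encodes a protein made almost only of zinc fingers. ZNF420, shown above with 25 CpGs, ranged from 86.0 to 97.2, and ZNF567 of the same cluster from 89.7 to 97.7. Of these 6 genes, 4 lie between ZNF565 and ZNF573.

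A list of 8 members whose promoters are known to be methylated in tumours was followed next. ZNF331, ZNF582 and ZNF667 were open in all 8 libraries, and ZNF382, ZNF154 and ZNF132 in none. ZNF671 was open in 4 libraries, at percentiles of 24.1 and 46.8 in untreated WT_4 and WT_5, 43.7 in WT_5 after IFNγ and 19.5 in KO_D2 after IFNγ. ZNF177 was open in 3, at 7.65 in untreated WT_5, 46.6 in WT_5 after IFNγ and 6.30 in KO_C5 after IFNγ. Of the 3 listed genes open in all 8 libraries, 1 had WT above KO without overlap, beside 6.79% of all genes open in all 8. This was ZNF667, with values of 66.4 to 77.8 in WT and 54.9 to 64.9 in KO. DNA methylation was not measured here.

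Among 9 members with a known role, 5 were open in all 8 libraries. ZNF473, a component of histone pre-mRNA processing, had percentiles of 78.9 to 97.6. ZNF274, which binds the finger exons of other ZNF genes and recruits SETDB1, had 54.7 to 82.5. ZNF808, a repressor of transposable elements needed for pancreas development, had 25.8 to 62.8, and ZNF296, linked to pluripotency, had 24.0 to 56.7. ZNF536, a regulator of neuronal differentiation, stood at 75.2 to 79.2 in WT and 59.3 to 74.3 in KO. ZNF91 and ZNF93, repressors of SVA and L1 elements, lie in the 19p12 cluster. ZNF91 was listed at 27.2 in untreated WT_5, 58.9 in WT_5 after IFNγ and 49.2 in KO_C5 after IFNγ, and ZNF93 at 27.2 and 38.9 in the WT_5 libraries only. ZNF224 was open in 7 libraries, with 16.7 in untreated WT_4 and 42.8 to 89.6 in the other 6. ZNF541, a gene of spermatocytes, was listed at 7.87 in untreated WT_4 and 2.80 in WT_5 after IFNγ.

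The partners of KRAB zinc finger proteins were examined as well. Of 22 genes of co-repressors and heterochromatin, 19 were open in all 8 libraries and 0 in none. TRIM28, the KRAB co-repressor, had 82.6 to 91.6 in WT and 70.5 to 79.2 in KO, and with ATF7IP and CBX1 it made up the 3 of these 19 genes with WT above KO without overlap, beside 6.79% of all genes open in all 8 libraries. SETDB1, the histone methyltransferase recruited by TRIM28, was open in 5 libraries. It lacked a peak in both WT_4 libraries and in untreated KO_C5, the 3 libraries in which members had their lowest shares. Of all protein-coding genes open in both WT_5 and both IFNγ-treated KO libraries, 430 of 11968 (3.59%) lacked a peak in the same 3. Any link between SETDB1 and the member shares was not tested. ATRX was open in 6 libraries and CBX5 in 7. None of the 22 genes was gained with IFNγ in both KO clones, beside 3.15% of all genes with any peak.

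Promoter sequence was described in 500 bp either side of the canonical start. A peak at any annotated start counted as open, so the sequence described need not be that under the peak. The median number of CpGs was 40.5 in the 36 members open in none, 53 in the 101 open in 1 to 7 and 69 in the 103 open in all 8 libraries. The median GC content in the same order was 54.6%, 56.3% and 61.1%. Other chromosome 19 genes open in all 8 had a median of 79 CpGs and a GC content of 64.8%. The closed members of chromosome 19 were still richer in CpG than other closed genes of the chromosome, since the other chromosome 19 genes open in none had a median of 22. Members from ZNF101 to ZNF254 had a median of 40 CpGs and the other 203 members 61. Some closed members were CpG-rich, with 86 CpGs at ZNF382, 80 at ZNF480, 74 at ZNF677, 67 at ZNF132, 58 at ZNF154, 57 at ZNF560 and 54 each at ZNF880 and ZNF418. The telomeric hexamer TTAGGG, which ZBTB48 binds, occurred on either strand in 25.0% of member windows and in 27.8% of those of all protein-coding genes. The hexamer GTGAGT, used by the study as a scrambled control, occurred in 53.3% and 40.8%. Neither search removed overlaps between motifs.

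The spread between libraries varied with GC content. The 31 members with a GC content of 65% or more had shares of 87.1% to 96.8%. The 47 members from 50 to 55% were open in 8.51% to 27.7% in both WT_4 libraries and the untreated KO libraries, and in 48.9% to 59.6% in the other 4. Other chromosome 19 genes of the same GC range (127 genes) were split too. They stood at 19.7% to 25.2% in the first 4 libraries and at 27.6% to 35.4% in the other 4. The 32 ZNF genes elsewhere in this range were split as the members were, with 34.4% to 46.9% in the first 4 libraries and 68.8% to 75% in the other 4. The 17 members below 50% GC ran from 35.3% to 76.5%, and their mean of 62.5% was above the 36.4% of members from 50 to 55%. The 37 members from ZNF101 to ZNF254 had a median GC content of 54.3%, against 59.0% in the other 203 members. Many members of this mostly closed cluster lie in the range from 50 to 55%. In the range from 55 to 60%, the 83 members had 42.2% to 65.1% in the first 4 libraries and 75.9% to 83.1% in the other 4. For 270 other genes of the chromosome these ranges were 45.9% to 50% and 56.3% to 58.1%. The median GC content of all open promoters was 64.3% to 65% in the 4 libraries with the lowest shares of open members and 63.9% to 64.0% in the other 4. The part of GC content in the differences between libraries was not tested.

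**Figure D5:**
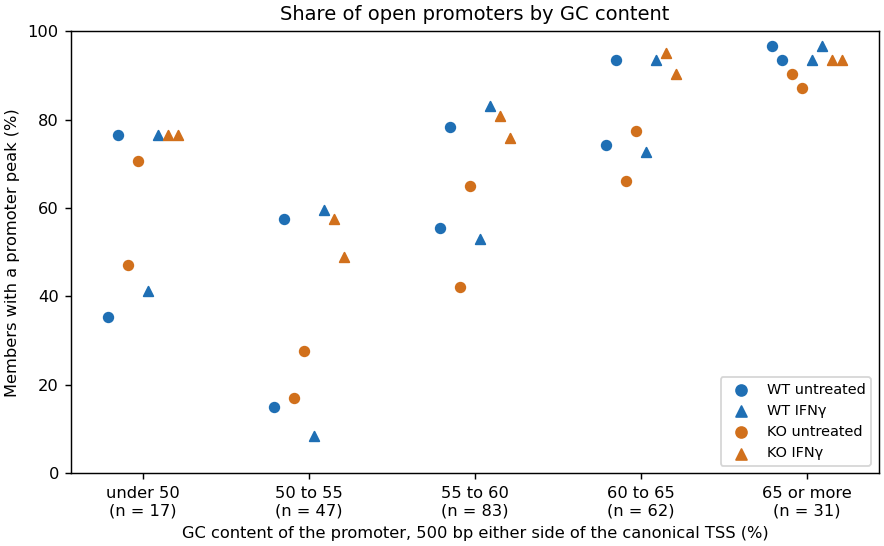
Share of members with a promoter peak (y axis, %) by GC content of the promoter (x axis, 5 ranges with the number of members) for the 8 libraries; blue marks WT, orange KO, circles untreated and triangles IFNγ. Libraries spread from 8.51% to 59.6% at a GC content of 50 to 55% and from 87.1% to 96.8% at 65% or more.

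Peaks within the gene bodies of members were rare. Away from starts (over 500 bp from any annotated TSS) there were 0 to 30 peaks per library in the 7.36 Mb covered by members, or 0 to 4.08 peaks per Mb. The other chromosome 19 genes had 5.22 to 22.7 peaks per Mb, and members were lower in 8 of 8 libraries. The library with most such peaks in members was WT_5 after IFNγ, which also had the longest list, and untreated KO_D2, with the shortest list, had 0. The part of read mapping in the difference between members and other genes was not tested.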

How the data were processed

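The study collected FAIRE-seq libraries of U2OS clones. Per its methods, reads were trimmed with Trimmomatic and aligned to GRCh38 with Bowtie2 (2.2.5 in the submitters' processing notes), reads of low mapping quality were removed with SAMtools 1.14, and peaks were called per library with MACS2 2.2.7.1. Input DNA was also prepared, but its use in peak calling and the handling of duplicates are not given in the sources used here. Removing reads of low mapping quality can lower signal where duplicated ZNF genes share sequence. The deposited fold enrichment is a ratio of summit pileup to local background, and the −log10 p and −log10 q columns, deposited beside it, are that caller's too. Of 195897 peaks on chromosomes 1 to 22 and X, 0 ran past the end of a GRCh38 chromosome.

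A promoter took the strongest peak within 500 bp of a GENCODE 44 start. Genotype was tested over 4 clone means, treatment over 8 libraries and differences between gene sets by sign flips over 4 clones, all by exact permutation. Benjamini-Hochberg adjustment over 3 measures was applied to genotype, to treatment and to the effect in KO minus that in WT. Differences between gene sets were not adjusted. Nothing here says that the libraries of a clone came from separate cultures, so p-values cover the spread between these samples. Labels name the clone, which pairs its untreated with its IFNγ library. Correlations of deviations from group means within clones were 0.636 in WT and 0.420 in KO over 10217 genes. WT and KO clones share only a number. Matched by that number, their untreated libraries gave 0.416 and their IFNγ libraries -0.155. The KO value was thus close to the untreated value between different clones, so in KO the pairing rests on the labels.

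Members and gene lists were chosen with earlier results of these data known. Named genes are those with a genotype or treatment pattern, the 6 strongest, the 5 with the largest separation of WT and KO, the lists, the 8 closed members with most CpGs and cluster ends. RefSeq promoters matched 210 of 240 members. Protein features, planned at first, were not analysed here. The code was tested on simulated lists. Alternatives are given in the closing section. Python 3.11.15 with numpy 2.4.6, pandas 2.3.3, scipy 1.17.1 and matplotlib 3.10.9 was used.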

Additional observations from a re-analysis of the deposited data

Results flagged for a closer look

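Groups of 4 libraries were screened for 1 library far from the other 3 by Dixon's criterion, which chance passes in about 1 of 20 groups. Of 60 groups examined, 7 passed. The median fold of members in KO_C5 after IFNγ (22.5) stood above the other KO libraries. WT_4 after IFNγ was the only IFNγ library with a lower share of open members than of other chromosome 19 genes (-4.10 points). ZNF574 had its lowest KO percentile in untreated KO_C5 (94.8) and its lowest IFNγ percentile in WT_4 (94.6). ZNF576 was lowest among KO libraries in untreated KO_C5 (78.5). ZNF550 was lowest among WT libraries in WT_4 after IFNγ (64.3), and ZNF544 was highest among IFNγ libraries in WT_5 (77.7).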

How the results depend on the processing

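Of 460 values recomputed under other settings, 407 kept their direction and side of the threshold (counts within 1.5 times), 40 counts moved further and 13 values changed sign; no p crossed a threshold. The WT minus KO difference in share of 0.104 points became -0.521 with −log10 q of at least 3, -0.312 with fold of at least 4 and -1.67 in lists of equal length, and ran from -7.71 to 7.92 as each library was left out. The IFNγ difference in percentile became -1.30 in lists of equal length. Leaving out each library, the IFNγ difference in fold ran from -2.78 to 5.11 and its KO minus WT contrast from -7.47 to 13.9. The 13 members with WT above KO became 3 in lists of equal length, where 1 member had KO above WT, 2 had untreated above IFNγ, 3 were KO-only after IFNγ and 1 was lost in KO. With the canonical start alone, 1 member each was WT-only after IFNγ, gained in WT and lost in KO. A −log10 q of at least 3, or a fold of at least 4, gave 1 KO-only member after IFNγ and 0 lost in WT. Omission of 1 library at a time gave 7 to 32 members WT-only and 0 to 7 KO-only when untreated (32 without WT_4, 12 without KO_C5, 21 without KO_D2, 7 KO-only without WT_5), and 0 to 4 WT-only and 0 to 51 KO-only after IFNγ (51 without WT_5). It gave 22 to 61 members gained in KO (61 without untreated KO_D2, 35 without IFNγ KO_D2), 0 to 11 gained and 1 to 15 lost in WT, 0 to 1 gained in all clones, 13 to 25 with WT above KO, 0 to 2 with KO above WT, 0 to 9 with IFNγ above untreated and 0 to 1 the opposite. With the clone as replicate block, the IFNγ difference in share of 10.9 points had an exact permutation p of 0.375 and changed no call. WT and KO paired by replicate number, or with the numbers crossed as their IFNγ deviations (r = -0.155) prompted after the data were seen, gave 0 calls of 3 either way. The 10.5% mean share of the cluster from ZNF101 to ZNF254 was 10.5% at a gap of 1000 kb, 8.19% in the least open run at 250 kb and 4.05% in lists of equal length. Peak lists carry no read counts, so absence of a peak is absence at this depth.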
